A study of Mus musculus with 6 samples.

Results

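The genes described here encode the initiation and elongation factors of cytosolic translation, together with a few proteins that regulate or modify them. They were taken by symbol, as the genes named Eif1 to Eif6, Eef1 or Eef2, without Eif1ax, Eif3c and the eIF2 kinases, and they number 52 of the 18193 genes that the array annotation names. They were measured in RNA from mouse hippocampus on 6 Affymetrix arrays, each of which gives a fluorescence signal, in intensity units, for every probe set, a group of short probes against 1 transcript. RNA bound to protein-G beads carrying an anti-myc antibody, which takes hold of a transgenic HuD protein, was hybridised to 3 arrays (HuD pulldown). RNA from protein-G beads with non-immune IgG was hybridised to 2 arrays (IgG pulldown, the background of the beads), and total RNA before the pulldown to 1 array (input). All 3 groups are from hippocampus. Strain, age, sex, the promoter of the transgene and whether tissue was pooled are not given in the sources used here, nor whether arrays come from separate animals. The p-values therefore describe how these arrays vary among themselves, and that variation may be technical.

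HuD is the neuronal ELAV-family protein encoded by Elavl4, which binds U-rich stretches of mRNAs and is known for regulating their stability and translation. In initiation, eIF2 brings the initiator tRNA to the small ribosomal subunit, eIF3 holds the complex together, the eIF4 proteins bind the mRNA cap and unwind the leader, eIF1 and eIF1A guide scanning, and eIF5 and eIF5B complete the joining of the subunits. In elongation, eEF1A delivers aminoacyl-tRNAs, eEF1B recharges it with GTP and eEF2 moves the ribosome along. In neurons these factors are known as control points of protein synthesis at synapses, mainly through phosphorylation of eIF2, of the eIF4E-binding proteins and of eEF2.

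Other genes were examined first, for the pulldowns and the tissue. Elavl4 RNA was at 2294, 2010.1 and 1689 with HuD, against 766 and 642 with IgG and an input of 597. Its groups did not overlap (log2 difference 1.46 ± 0.25, adjusted p = 0.00111, limma). In 27.6% of all tested genes every HuD signal likewise lay above both IgG signals. Whether the Elavl4 signal includes RNA of the transgene was not tested. Of 5 general neuronal markers all 5 had input signals of at least 313, while of the 7 markers of hippocampal excitatory neurons the granule cell gene Prox1 was near the floor of the array with 9.80 in the input. Markers of cell types moved in both directions, where 21.5% of all tested genes rose and 34% fell at the threshold given below. Of the general neuronal markers 1 rose and 1 fell, but with any 1 pulldown array left out 0 fell and 0 to 2 rose. Of the 6 tested excitatory neuron markers 1 rose and 1 fell, and over left-out arrays 0 to 1 rose and 1 to 2 fell. Of 6 interneuron markers 3 fell, the GABA synthesis gene Gad1 (-1.43 ± 0.25), the GABA transport gene Slc32a1 (-1.90 ± 0.24) and Sst (-1.52 ± 0.34). Pvalb rose (1.44 ± 0.31), and the other GABA synthesis gene Gad2 (0.22 ± 0.32) and Vip (-0.68 ± 0.32) were not called. The median log2 difference of the 6 was -1.06. The medians were -0.95 for oligodendrocyte, -1.05 for astrocyte and -1.10 for microglia markers: 6 of 7 oligodendrocyte markers fell and 0 rose, 5 of 8 astrocyte markers fell and 1 rose, and 5 of 6 tested microglia markers fell. With arrays centred on the 75th percentile 1596 of all 9097 tested genes fell and 2632 rose. The marker falls then numbered 1 of 7 oligodendrocyte and 1 of 6 microglia markers, and of the astrocyte markers 3 fell and 2 rose. For oligodendrocyte and microglia markers, without HuD array 1 they numbered 5 and 2, and without IgG array 2 they numbered 4 and 2. The summed signal of the 7 oligodendrocyte genes on the array ranged from 13910 to 18244 on the HuD arrays and from 23463 to 29349 on the IgG arrays, that of the 6 interneuron genes from 5567 to 7965 and from 7953 to 9532, that of the 8 astrocyte genes from 14313 to 16396 and from 17362 to 22282, and that of the 7 microglia genes from 1475 to 1988 and from 2919.6 to 4647. No marker was listed at 0. A lower marker signal here is less of that mRNA on the HuD arrays relative to the rest of each array, not a measure of cells. The part of these cell types in the differences below was not tested.

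Some mRNAs of the translation factors were more and others less abundant with HuD than with IgG. By the brightest probe sets, scaled as deposited, rises were about as frequent as among all tested genes, and falls were more frequent. Each gene was represented by its brightest probe set, and 48 of the 52 were bright enough to be tested. The threshold was an adjusted p under 0.05 from limma over all 9097 tested genes. It was passed by 11 genes that rose and 27 that fell, and 10 genes were not called. Over all tested genes 21.5% rose and 34% fell, against 22.9% and 56.2% of the translation factors. Their median log2 difference was -1.01, and that of all tested genes was -0.28. Differences are on the log2(signal + 32) scale, which understates the change of dim genes, and each array had been scaled to a common level, so that a difference describes an RNA against the rest of its array. Centring the arrays on the 75th percentile moved the median of all tested genes to 0.07. It left 11 rises and 18 falls among the 48 factors, and 2632 rises and 1596 falls among all 9097 tested genes. As deposited, all tested genes had 1958 rises and 3093 falls. The translation factors' median was 0.71 below that of all genes with this centring, against 0.73 below it as deposited. This gap, as the factors' median minus that of all genes, was -0.17 with the probe sets of each gene averaged (9 rises and 20 falls), -0.44 when only the brightest 25% of genes were tested and -0.45 without IgG array 2. Without HuD array 1 there were 7 rises and 18 falls, and all tested genes had 1488 rises and 1982 falls. With probe sets averaged 47 of the factors were tested, and 1493 of all 9097 tested genes rose and 2994 fell. The 4 genes not tested were the methyltransferase genes Eef1aknmt and Eef2kmt, the eIF2B subunit gene Eif2b3 and Eif4a3, and none of their brightest probe sets exceeded 105, the signal of Eif2b3 in the input.

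In eIF3 9 of 10 tested genes fell and 0 rose, in eIF2B 3 of 4 fell and 0 rose, and in eIF2 4 of 5 fell and 1 rose. Among the eIF4 helicase and scaffold genes 3 of 6 rose and 1 fell, and among the subunit joining and eIF5A genes 3 of 5 rose and 2 fell. The largest rises were those of Eif5a2, Eif4e, Eef1e1, Eif1a and Eif5, and the largest falls those of Eef1d, Eif3i, Eef2, Eif2d and Eif3d. Of the 38 called genes 18 kept their call in every one of 16 alternatives in which they were tested, 6 that rose and 12 that fell. In these alternatives 0 changed direction. They changed the scaling, filter, model or arrays or averaged each gene's probe sets, and did not go through a gene's other probe sets one by one. Eif5, Eif6 and Eif2s3y have probe sets called in opposite directions. All 3 HuD signals lay above both IgG signals in 11 of the 48 genes (22.9%) and below both in 27 (56.2%), against 27.6% and 43.1% of all tested genes. A call nearly requires such separation, and Eif4g3 was the called gene without it.

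**Figure D1:**
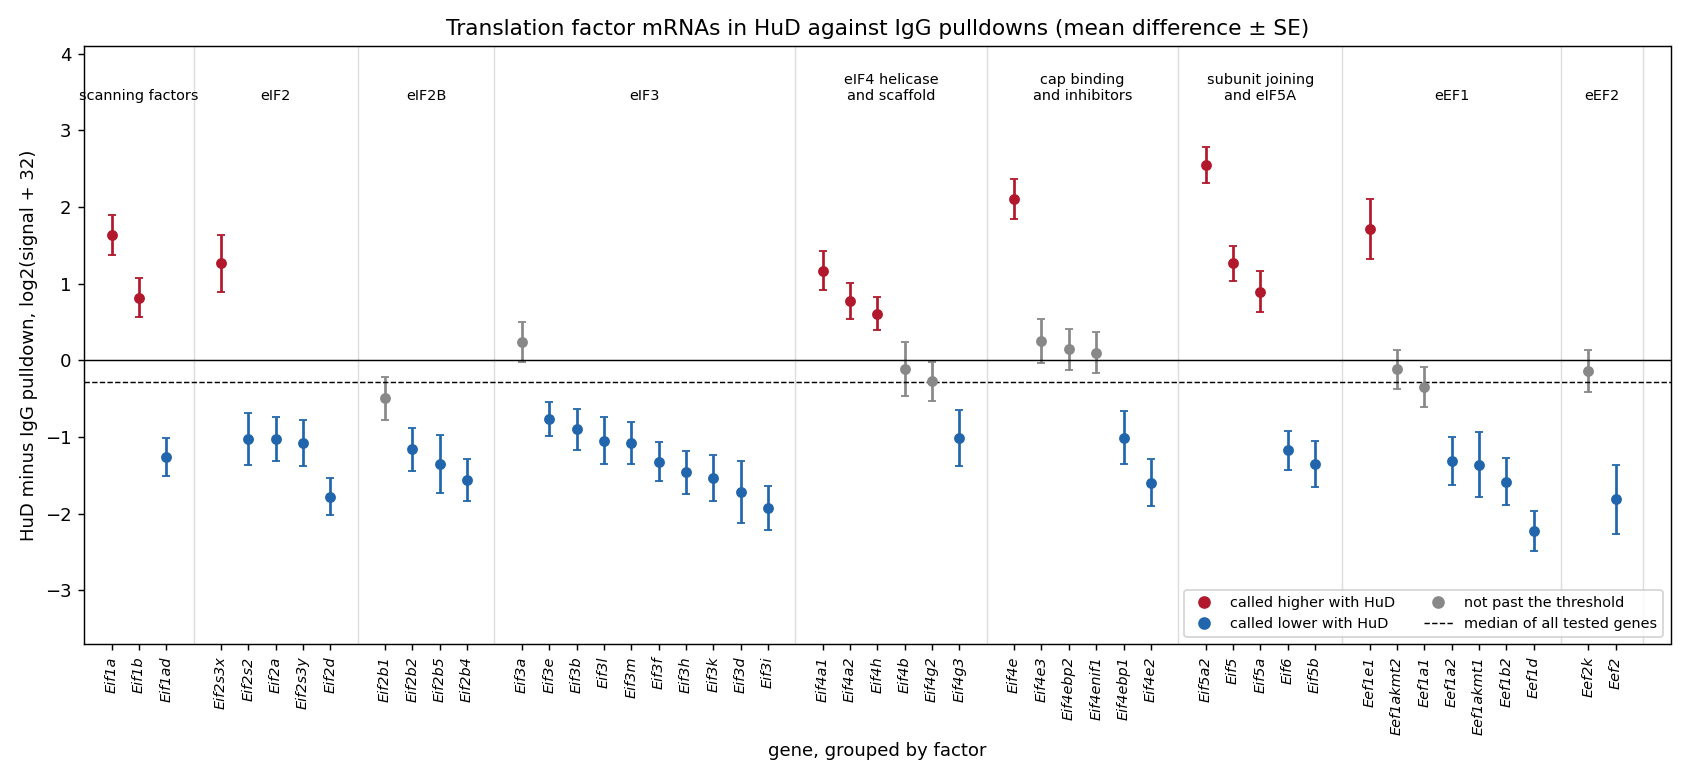
Mean difference between HuD and IgG pulldowns, in log2(signal + 32), with its standard error, for the 48 tested genes grouped by factor. Red genes rose, blue genes fell and grey genes did not pass the threshold; the dashed line is the median of all tested genes at -0.28, and in the eIF3 group all genes but Eif3a lie below it.

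Transcription start regions were examined for sequences that the translation factor genes share, since many mRNAs of the translation machinery are known to begin with a pyrimidine tract and since their promoters often hold sites of ETS factors. Windows of 300 bases, 250 before and 50 after the annotated start, were matched by gene identifier for 41 of the 52 genes (RefSeq, GRCm38.p6). A C at the start followed by at least 4 pyrimidines, read on the transcribed strand, was present in 2 of the 41, Eif3f, which fell, and Eif2s3x, which rose, against 3.01% of all 27025 genes with a window and 3.2% of the 7376 tested genes. The letters CCGGAAGT, the core of many ETS sites, were found on either strand in 8 of the 41 (19.5%), against 4.31% of all genes and 9.08% of the tested genes. They were present in 6 of the 20 genes with a window that fell (Eef1b2, Eif2b2, Eif2b4, Eif3d, Eif3l and Eif4e2), in 2 of the 10 that rose (Eif5a and Eif5a2) and in 0 of the 8 that did not pass. Over all tested genes the share was 10.7% of those that fell and 7.28% of those that rose. A match describes these letters only, and no match says nothing about a factor. The tract was sought only at the annotated start base, so a tract beginning a few bases away was not counted. Its absence here therefore does not show that an mRNA lacks it.
The sequences below are shown because the genes include both rises and falls. Capitals mark the pyrimidine tract from the annotated start in the first 2 and CCGGAAGT, or ACTTCCGG where it lies on the other strand, in the rest.
Eif2s3x (chrX:94212632-94212661, minus strand): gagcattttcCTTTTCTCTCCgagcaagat
Eif3f (chr7:108934405-108934434, plus strand): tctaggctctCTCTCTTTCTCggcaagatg
Eef1b2 (chr1:63176821-63176850, plus strand): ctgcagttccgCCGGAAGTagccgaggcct
Eif2b2 (chr12:85219486-85219515, plus strand): cctctctcggcCCGGAAGTgaaacagtgct
Eif2b4 (chr5:31193120-31193149, minus strand): cccagtgcacgCCGGAAGTtgtagtccgct
Eif3d (chr15:77970877-77970906, minus strand): agctgtgacacACTTCCGGttgtgtctcac
Eif3l (chr15:79075176-79075205, plus strand): ggctgggcgggACTTCCGGtccggccaagc
Eif4e2 (chr1:87213905-87213934, plus strand): tcgccagccaaCCGGAAGTagccgggccct
Eif5a (chr11:69920667-69920696, minus strand): cagccgtagcaCCGGAAGTgttccccattg
Eif5a2 (chr3:28781230-28781259, plus strand): cggggcctatcCCGGAAGTgtggtcgcggc
The motif began at base 2 of the transcript for Eef1b2 and Eif2b4, at base 17 for Eif2b2, and 71 bases before the start for Eif3d, 36 for Eif3l and 55 for Eif5a. Eif4e2 has 3 annotated starts around 1 copy of the motif, which began at base 3 or 6 of the transcript or 23 bases before it. Eif5a2 has 2 copies, at 164 and 36 bases before the start, and the copy nearer the start is shown.

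The factors of ribosome scanning were split. Eif1a, which encodes eIF1A, the factor that stabilises the scanning ribosome, was at 889, 761 and 1070.4 on the HuD arrays, 247 and 288 on the IgG arrays and 291 for the input. All HuD arrays were high and the IgG arrays lay near the input, a rise of 3.11-fold (log2 difference 1.64 ± 0.26, adjusted p = 0.00076). Its second tested probe set rose by 1.18 on the log2 scale. Eif1b encodes a close relative of the start codon selection factor eIF1 and was at 4316, 4072 and 4227 with HuD, against 1824 and 3078 with IgG and an input of 2853. Its HuD signals lay above both others, with IgG array 2 nearest, and it rose 1.76-fold (log2 difference 0.82 ± 0.26, adjusted p = 0.0197). Eif1ad, which encodes a protein with an eIF1A-like domain, went the other way, at 65.8, 75.2 and 64.8 on the HuD arrays, 246 and 177 on the IgG arrays and 228 for the input. Its HuD signals were below both other groups, a fall of 2.40-fold (log2 difference -1.26 ± 0.25, adjusted p = 0.00208), but a second probe set stood at 0.13 and did not pass. Values in brackets are log2 differences from here on. The rise of Eif1b was not past the threshold with HuD array 1 (0.80), HuD array 3 (0.81) or IgG array 1 (0.45) left out, nor with no filter on dim genes (0.82). With its probe sets averaged, Eif1ad stood at -0.56 and passed.

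In the eIF2 group 1 gene rose and 4 fell. The gamma subunit, which holds the initiator tRNA, has an X-linked and a Y-linked gene in the mouse. Eif2s3x was at 1671, 1276 and 987 with HuD, against 821 and 320 with IgG and an input of 599, a rise of 2.40-fold (log2 difference 1.26 ± 0.37, adjusted p = 0.014). The HuD arrays were all above the IgG arrays, although IgG array 1 came close to HuD array 3. Its other tested probe sets were at 1.17, a rise, and -0.55, not called. Eif2s3y was at 94.9, 132 and 53.4 on the HuD arrays, 214 and 236 on the IgG arrays and 206 for the input, a fall of 2.12-fold (log2 difference -1.08 ± 0.30, adjusted p = 0.0106), with HuD below both other groups. A second probe set of Eif2s3y moved in the opposite direction, at 95.5, 94.4 and 86.2 with HuD, against 25.5 and 39.5 with IgG and an input of 28.2, and rose by 0.95. The difference between the 2 genes was not tested. Their sequences are alike, so probes of one may bind the other's RNA. Eif2s3x was not past the threshold without HuD array 1 (1.08) or IgG array 2 (0.62) or with probe sets averaged (0.63), and was at 1.90 without IgG array 1. Eif2s3y lost its call without HuD array 3 (-0.83), with probe sets averaged (-0.07) and with arrays centred on the 75th percentile (-0.76) or the median (-0.80).

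Eif2s2, the beta subunit of eIF2, was at 449, 623 and 644 on the HuD arrays, 780 and 1787 on the IgG arrays and 1612 for the input. All HuD signals were below both IgG signals, and IgG array 2 resembled the input more than IgG array 1 did. It fell 2.04-fold (log2 difference -1.03 ± 0.34, adjusted p = 0.0249), and of its 5 tested probe sets 4 fell and 1 was at 0.62 and did not pass. Eif2d, which encodes a factor that can deliver tRNA to the ribosome without eIF2, was at 91.1, 97.3 and 82.3 with HuD, against 379 and 395 with IgG and an input of 288. Its HuD arrays lay close together and far under the others, and it fell 3.43-fold (log2 difference -1.78 ± 0.24, adjusted p = 0.000372), with 3 of 4 tested probe sets called lower and the fourth at 0.07. Eif2a, another eIF2-independent initiation factor and not a subunit of eIF2, was at 95.1, 152 and 133 on the HuD arrays, 231 and 355 on the IgG arrays and 262 for the input. The groups did not overlap and it fell 2.04-fold (log2 difference -1.03 ± 0.28, adjusted p = 0.0106). Eif2a lost its call without HuD array 1 (-0.87) or IgG array 2 (-0.75) and under both centrings (-0.69 and -0.74), and was at -0.55 with probe sets averaged. Eif2s2 lost its call with HuD array 1 (-0.87), HuD array 2 (-1.09) or IgG array 2 (-0.44) left out, under both centrings (-0.64 and -0.70) and with no filter on dim genes (-1.03). It was at -1.61 without IgG array 1 and at -0.56 with probe sets averaged. Eif2d kept its call with probe sets averaged, at -0.60.

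The subunits of eIF2B, the exchange factor that recharges eIF2 with GTP and whose defects cause a white matter disease, were lower with HuD. Of 4 tested genes 3 fell and 0 rose. Eif2b4, the delta subunit, was at 171, 179 and 217 with HuD, against 773 and 495 with IgG and an input of 483. HuD signals were the lowest of the 3 groups, a fall of 2.96-fold (log2 difference -1.56 ± 0.28, adjusted p = 0.00122). The catalytic epsilon subunit Eif2b5 was at 35.7, 121 and 51.2 on the HuD arrays, 306 and 144 on the IgG arrays and 240 for the input. Its HuD array 2 reached close to IgG array 2, and it fell 2.56-fold (log2 difference -1.36 ± 0.38, adjusted p = 0.0111). The beta subunit Eif2b2 was at 269.7, 345 and 454 with HuD, against 742 and 908 with IgG and an input of 756, a fall of 2.24-fold (log2 difference -1.16 ± 0.28, adjusted p = 0.00546) without overlap. Its other tested probe sets, at 0.36 and -0.51, did not pass, and with probe sets averaged the gene was at -0.44, not past the threshold. Eif2b5 lost its call without HuD array 1 (-1.11) or IgG array 1 (-0.88) and was at -0.76 with probe sets averaged. The alpha subunit Eif2b1 did not pass (-0.50 ± 0.27, adjusted p = 0.141), although its HuD signals, 101, 123 and 64.8, were below both IgG signals of 133 and 161.

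The eIF3 subunits fell nearly as a block: 9 of 10 tested genes fell, 0 rose and Eif3a was not called, with a median log2 difference of -1.20. Eif3i, a WD-repeat subunit, was at 1114, 1589 and 1731 on the HuD arrays, 4382 and 7232 on the IgG arrays and 3735 for the input. HuD signals were far below both other groups and IgG array 2 was the highest array, a fall of 3.81-fold (log2 difference -1.93 ± 0.29, adjusted p = 0.000538). Its second probe set fell by 1.45 on the log2 scale. Eif3d, a subunit that can itself bind the cap of some mRNAs, was at 98.7, 212 and 104 with HuD, against 815 and 308 with IgG and an input of 572. HuD was below IgG on every array, but the IgG arrays differed widely, and it fell 3.29-fold (log2 difference -1.72 ± 0.40, adjusted p = 0.00457). Eif3k was at 139, 285 and 177 on the HuD arrays, 586 and 649 on the IgG arrays and 729 for the input, a fall of 2.89-fold (log2 difference -1.53 ± 0.30, adjusted p = 0.00199). Eif3h was at 349, 489 and 311 with HuD, against 939 and 1272 with IgG and an input of 1447, a fall of 2.76-fold (log2 difference -1.46 ± 0.28, adjusted p = 0.0018). For both, the IgG signals lay near the input and above every HuD signal.

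The other falls in eIF3 ranged from -1.32 for Eif3f to -0.77 for Eif3e, with Eif3m at -1.08, Eif3l at -1.05 and Eif3b, a core subunit, at -0.90. None of these 5 genes had overlapping groups. Of the 9 falls, Eif3b, Eif3e and Eif3l lost their calls with arrays centred on the 75th percentile (-0.55, -0.37 and -0.70) or the median (-0.60, -0.43 and -0.75). They also lost them without HuD array 1 (-0.89, -0.76 and -0.99). Eif3b and Eif3l lost theirs without HuD array 3 (-0.88 and -0.85) or IgG array 1 (-0.61 and -0.92) too. With probe sets averaged Eif3e was at -0.44, not past the threshold, and Eif3d, Eif3h and Eif3l still passed at -0.88, -0.54 and -0.49. Eif3d also passed with IgG array 1 left out (-1.06).

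Eif3a, the largest subunit and scaffold of eIF3, was the exception. Its brightest probe set was at 715, 529 and 624 on the HuD arrays, 582 and 463 on the IgG arrays and 556 for the input, with overlapping groups and no call (0.24 ± 0.26, adjusted p = 0.455). Another probe set of the gene was at 348, 346 and 313 with HuD, against 943 and 664 with IgG and an input of 558 and fell by 1.17 on the log2 scale. With all 4 probe sets averaged the gene was at -0.44.

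**Figure D2:**
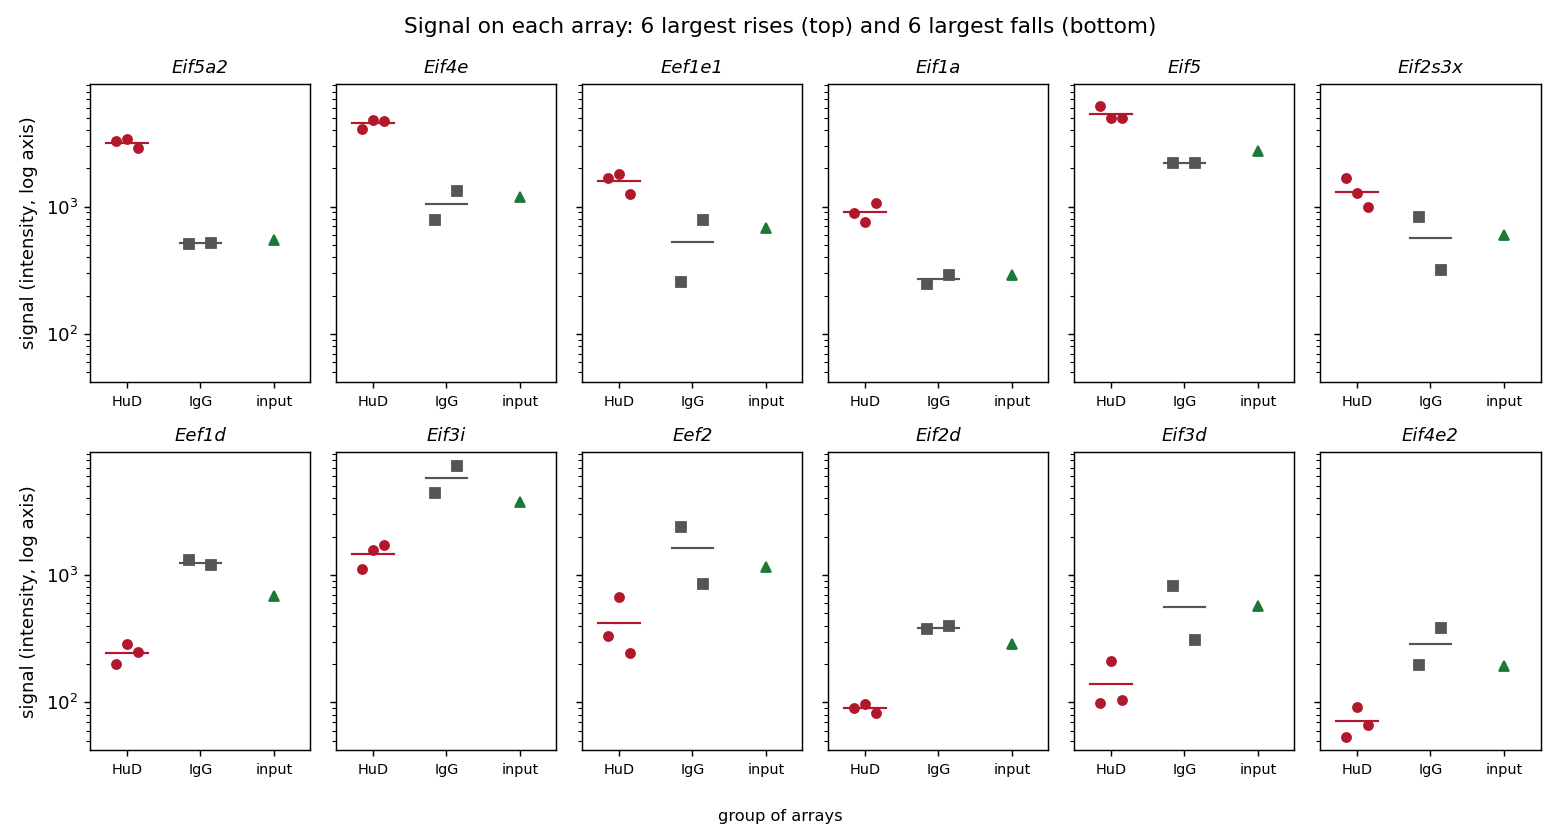
Signals (intensity, log axis) on each array for the 6 genes with the largest rises and the 6 with the largest falls between HuD and IgG pulldowns. Each point is 1 array and lines are group means; in all 12 genes the 3 HuD points lie on one side of both IgG points, and the input triangle lies on the IgG side of the HuD points.

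Among the eIF4 helicase and scaffold genes 3 rose and 1 fell. Eif4a1 encodes the main RNA helicase of initiation and was at 3267, 4187 and 4295 on the HuD arrays, 1453 and 2016 on the IgG arrays and 1528 for the input. HuD signals were above every other array, a rise of 2.25-fold (log2 difference 1.17 ± 0.25, adjusted p = 0.0031), and of its other probe sets one rose (0.84) and one did not pass (0.60). Its paralog Eif4a2 was at 5963, 7175 and 4949.9 with HuD, against 3534 and 3428 with IgG and an input of 3648, again with no overlap, a rise of 1.71-fold (log2 difference 0.77 ± 0.23, adjusted p = 0.0156). Eif4h, a cofactor of the helicase, was at 10833, 14276 and 13321 on the HuD arrays, 7383 and 9459 on the IgG arrays and 7529 for the input, a rise of 1.52-fold (log2 difference 0.60 ± 0.22, adjusted p = 0.0335). HuD array 1 came near IgG array 2. In the fit over all probe sets this probe set was not called, and the other 3 tested probe sets of the gene rose, by 0.64, 0.86 and 0.95. Eif4a2 was not past the threshold without HuD array 1 (0.77) or HuD array 2 (0.64), and was at 1.17 with arrays centred on the 75th percentile. Eif4h lost its call without any 1 of HuD arrays 1, 2 or 3 (0.72, 0.52 and 0.57) or IgG array 1 (0.43), with probe sets averaged (0.46), without the filter (0.60) and without the variance trend (0.60). It was at 1.01 and 0.94 under the 2 centrings.

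Of the scaffold genes, Eif4g3 fell and Eif4g2 was not called by its brightest probe set. Eif4g1 is not among the 52 genes. Eif4g3, a paralog of eIF4G that links the cap to the ribosome, was at 189, 287 and 178 with HuD, against 739 and 285 with IgG and an input of 557, and HuD array 2 overlapped IgG array 2. It fell 2.01-fold (log2 difference -1.01 ± 0.37, adjusted p = 0.0361), a call that was lost with HuD array 1 (-0.93), HuD array 3 (-0.90) or IgG array 1 (-0.37) left out, with the title suffix as a block (-0.94), with probe sets averaged (-0.24), without the filter (-1.01) and under all 3 other scalings (-0.64, -0.70 and -0.91). It was at -1.65 without IgG array 2. Eif4g2, a related protein that does not bind eIF4E, was at 5299.5, 9191 and 6224 on the HuD arrays, 7560.4 and 8749.8 on the IgG arrays and 4315 for the input, overlapping and not called (-0.27 ± 0.26, adjusted p = 0.377). A second probe set of it was at 3071, 2147 and 2510.5 with HuD, against 1239 and 1349 with IgG and an input of 1809 and rose by 0.96. The helicase cofactor Eif4b was not called (-0.12 ± 0.35, adjusted p = 0.789), and its IgG arrays, at 1007 and 386, lay on either side of the HuD arrays at 595, 594 and 540.3. It passed without IgG array 2 (-0.77) and stood at 0.54 when IgG array 1 was left out. Another probe set of it fell by 0.96 on the log2 scale.

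Of the 6 cap-binding proteins and their inhibitors 1 rose (16.7%) and 2 fell (33.3%), near the 21.5% and 34% of all tested genes. Eif4e, which encodes the cap-binding protein that is limiting for initiation in many cells, was at 4054, 4756 and 4692 on the HuD arrays, 787 and 1320.3 on the IgG arrays and 1193 for the input. All HuD signals were far above every other signal, a rise of 4.30-fold (log2 difference 2.10 ± 0.27, adjusted p = 0.000275). All 3 of its tested probe sets rose, by 2.10, 2.47 and 2.03. Eif4e2, which encodes a related cap-binding protein known as a repressor of translation, was at 53.6, 92.9 and 66.0 with HuD, against 195 and 384 with IgG and an input of 192. HuD lay below both other groups, a fall of 3.03-fold (log2 difference -1.60 ± 0.31, adjusted p = 0.00181), but its other 3 tested probe sets, between -0.52 and 0.21, did not pass, and the average was -0.44, not past the threshold. Eif4e3 was not called (0.25 ± 0.28, adjusted p = 0.462), while a second probe set was at 129, 189.9 and 185 on the HuD arrays, 589 and 227 on the IgG arrays and 148 for the input and fell by 1.02 on the log2 scale, with IgG array 1 far above the rest.

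Eif4ebp1 and Eif4ebp2 encode proteins that hold eIF4E inactive until mTOR phosphorylates them. Eif4ebp1 was dim, at 35.1, 63.0 and 32.3 with HuD, against 64.1 and 199.9 with IgG and an input of 77.6, with HuD array 2 just below IgG array 1. It fell 2.01-fold (log2 difference -1.01 ± 0.35, adjusted p = 0.0303), a call lost with HuD array 1 (-0.93), HuD array 3 (-0.90) or IgG array 2 (-0.37) left out, without the filter (-1.01) and under all 3 other scalings (-0.75, -0.79 and -0.76), and its value was -1.64 with IgG array 1 left out. Of its other tested probe sets one fell by 1.23 on the log2 scale and one was not called (-0.19). Eif4ebp2, the main form in brain, was dim and not called (0.14 ± 0.27, adjusted p = 0.666), and neither was Eif4enif1, which encodes the eIF4E transporter (0.10 ± 0.27, adjusted p = 0.768).

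The factors of subunit joining and the eIF5A genes held the largest rise. Eif5a2, the less common paralog of eIF5A, a factor that keeps ribosomes moving through difficult sequences, gave signals of 3264, 3414 and 2879 on the HuD arrays, 511 and 521 on the IgG arrays and 551 for the input. The 3 HuD arrays were alike and both IgG arrays were near the input, a rise of 5.86-fold (log2 difference 2.55 ± 0.24, adjusted p = 0.000125). Its second probe set rose by 1.81. Eif5a itself was at 6398, 10482 and 5968 with HuD, against 4369 and 3568 with IgG and an input of 4269.6, with HuD array 2 the highest and no overlap, a rise of 1.86-fold (log2 difference 0.89 ± 0.27, adjusted p = 0.0161), and 1.56 for its second probe set. Its call was lost without HuD array 2 (0.64), IgG array 2 (0.75) or the filter (0.89).

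Eif5, which triggers GTP hydrolysis by eIF2 at the start codon, was at 6188, 4974 and 4958 on the HuD arrays, 2214 and 2198 on the IgG arrays and 2745 for the input. HuD arrays were all above the others, a rise of 2.40-fold (log2 difference 1.26 ± 0.22, adjusted p = 0.00123). Of its 5 tested probe sets 2 rose, 2 did not pass and 1 fell, at 93.7, 125 and 108 with HuD, against 212 and 216 with IgG and an input of 238, by 0.81 on the log2 scale, and with all averaged it was at 0.57 and passed. Eif5b, the GTPase that joins the subunits, was at 71.0, 42.2 and 52.4 on the HuD arrays, 265 and 132 on the IgG arrays and 189.8 for the input, a fall of 2.55-fold (log2 difference -1.35 ± 0.30, adjusted p = 0.00359) with no overlap. Eif6, which keeps free large subunits apart from small ones, was at 222, 186 and 175 with HuD, against 532 and 428 with IgG and an input of 452, a fall of 2.26-fold (log2 difference -1.18 ± 0.26, adjusted p = 0.00338), and here too a second probe set moved the other way, at 210.4, 268 and 256 on the HuD arrays, 102 and 117 on the IgG arrays and 64.4 for the input, and rose by 0.96. With probe sets averaged Eif5b was at -0.61 and Eif6 at -0.11, neither past the threshold.

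**Figure D3:**
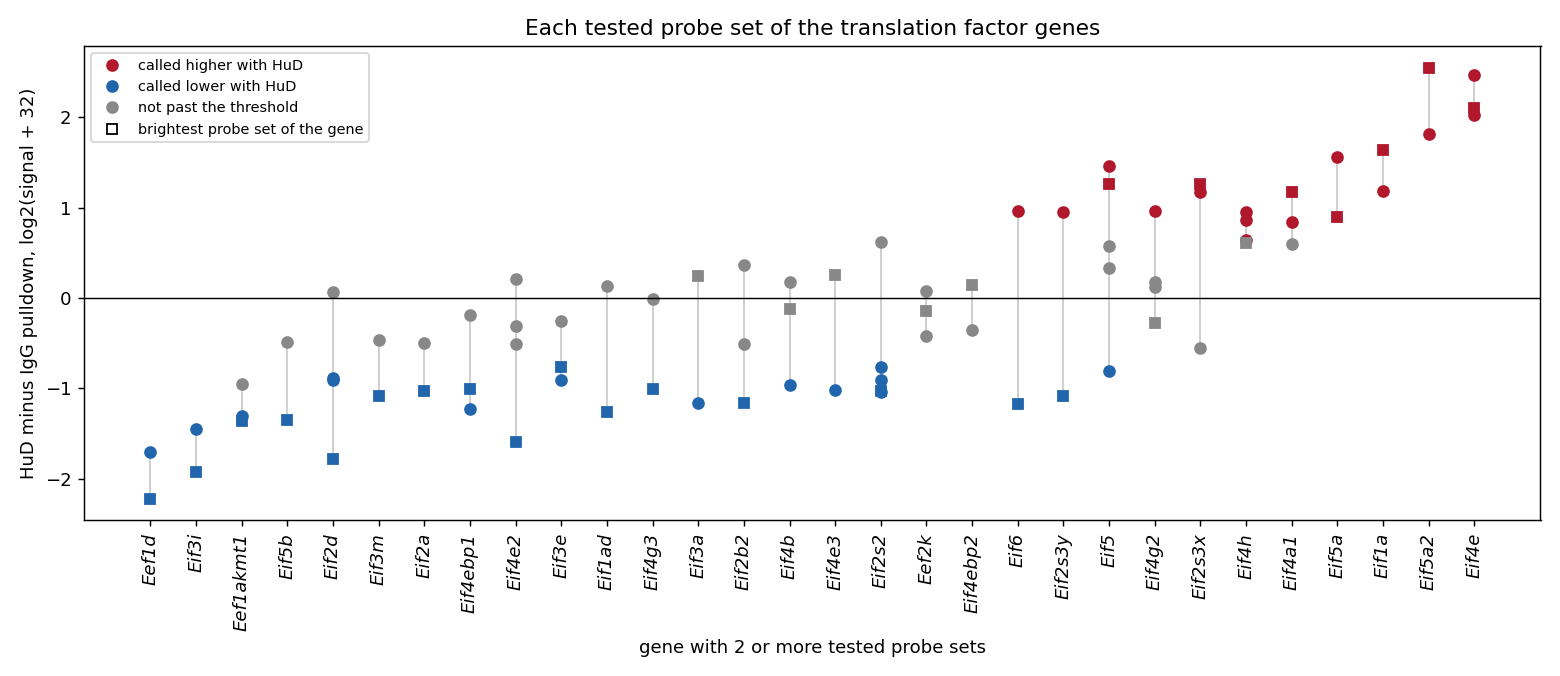
Difference between HuD and IgG pulldowns, in log2(signal + 32), for each tested probe set of the 30 translation factor genes with at least 2 tested probe sets; squares are the brightest probe sets and colours give the call in the fit over all probe sets. Eif5, Eif6 and Eif2s3y have probe sets called in opposite directions, and all 3 tested probe sets of Eif4e lie above 2.

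Across the whole group 103 of 135 probe sets were tested, and among them 24 were called higher, 41 lower and 38 neither. Over all 22519 tested probe sets 14.7% rose and 26% fell. Both shares were lower than among the translation factors' probe sets, where a gene with several probe sets counts several times. The falls among the translation factors' probe sets numbered 21 without HuD array 1 and 26 without HuD array 3. The shares of all tested probe sets at these settings are not given here, so these counts cannot be set against the 26%. Of the 30 genes with at least 2 tested probe sets, 6 had every one called in 1 direction (Eef1d, Eif1a, Eif3i, Eif4e, Eif5a and Eif5a2), 19 had some called in 1 direction, 2 had none called and 3 had calls in both. Beside a brightest probe set that fell, another tested probe set was not called for Eif3e (-0.25), Eif3m (-0.46), Eif2a (-0.50), Eif5b (-0.49), Eif4g3 (-0.02) and Eef1akmt1 (-0.96), and the 2 probe sets of Eif5 that were not called stood at 0.58 and 0.33. Probe sets of a gene can read different ends or isoforms of its RNA, and 11 of the 48 representing probe sets have names ending in _x_at or _s_at, the array's mark for probes that can bind several transcripts. Those of Eif1a and Eef1d are among the 11.

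In the eEF1 group the exchange factor genes fell. Eef1d was at 201, 286 and 251 with HuD, against 1303 and 1209.6 with IgG and an input of 691. HuD arrays were the lowest and IgG arrays the highest, with the input between them, a fall of 4.67-fold (log2 difference -2.22 ± 0.26, adjusted p = 0.000208), the largest of all 27. A second probe set fell by 1.70 on the log2 scale. Eef1b2, which carries the exchange activity, was at 999, 1077 and 1321 on the HuD arrays, 2417 and 4879 on the IgG arrays and 2788 for the input, with no overlap, a fall of 2.999-fold (log2 difference -1.58 ± 0.31, adjusted p = 0.00184). With all 4 probe sets averaged, 2 of them too dim to test, Eef1d was at -1.07 and passed.

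The tRNA carriers differed in their calls. Eef1a2, the form of neurons and muscle, was at 683, 609 and 329.8 with HuD, against 1433 and 1235 with IgG and an input of 1651. HuD was below both other groups, a fall of 2.48-fold (log2 difference -1.31 ± 0.31, adjusted p = 0.00532). Eef1a1, the widely expressed form, was at 5692, 7939 and 4318 on the HuD arrays, 7889 and 6949.6 on the IgG arrays and 8019 for the input, with overlapping groups and no call (-0.35 ± 0.26, adjusted p = 0.272). The difference between the 2 genes was not tested, and the array read each through 1 probe set. Centred on the 75th percentile Eef1a1 was at 0.05.

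Eef1e1 was the gene of this group that rose. It encodes a scaffold protein of the multi-tRNA synthetase complex and was at 1672, 1812 and 1261 with HuD, against 257 and 791 with IgG and an input of 681. HuD was above both other groups, a rise of 3.27-fold (log2 difference 1.71 ± 0.39, adjusted p = 0.00402), but the IgG arrays were far apart, and with IgG array 1 left out the gene still passed (0.96). Eef1akmt1, a lysine methyltransferase of eEF1A, was at 244, 262 and 367 on the HuD arrays, 419 and 1460.3 on the IgG arrays and 873 for the input, with IgG array 2 high and HuD array 3 close to IgG array 1. It fell 2.57-fold (log2 difference -1.36 ± 0.42, adjusted p = 0.0184), a call lost with HuD array 1 (-1.26), HuD array 2 (-1.30) or IgG array 2 (-0.50) left out, under both centrings (-0.99 and -1.05) and without the filter (-1.36). With IgG array 1 left out the value was -2.23. Eef1akmt2 was not called (-0.11 ± 0.25, adjusted p = 0.717).

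Eef2, the translocase of elongation, was at 334, 677 and 245 with HuD, against 2388 and 854 with IgG and an input of 1161. HuD array 2 came close to IgG array 2 and IgG array 1 was the highest, and the gene fell 3.52-fold (log2 difference -1.82 ± 0.45, adjusted p = 0.00643). It was not past the threshold with IgG array 1 left out (-1.09), and was past it with its probe sets averaged (-0.80). Eef2k, the kinase that switches eEF2 off, was not called in any of its 3 tested probe sets, which lay between -0.42 and 0.07.

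The input gave a second reference. It shares the HuD arrays with the comparison to IgG, so the values are set side by side and are not independent. Against the input 6 of the 48 genes rose and 23 fell, where 15.7% of all tested genes rose and 25.9% fell, and the fit gives the single input array the spread seen among the pulldowns. Without HuD array 1 there were 10 falls, and with arrays centred on the 75th percentile 11 rises and 10 falls. The shares of all tested genes against the input at these settings are not given here. The 6 rises were those of Eif5a2 (2.46 on the log2 scale), Eif4e (1.88), Eif1a (1.52), Eif4a1 (1.33), Eif5 (0.95) and Eif4h (0.75), and all 6 had also risen against IgG. The other 5 genes that rose against IgG did not pass against the input, with Eef1e1 at 1.16, Eif2s3x at 1.06, Eif5a at 0.78, Eif4a2 at 0.70 and Eif1b at 0.55.

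Of the 23 falls against the input 22 had also fallen against IgG. The largest were in eIF3, with Eif3m at -2.20, Eif3l at -1.96, Eif3d at -1.89 and Eif3h at -1.86. Eif3m and Eif3l were at -1.08 and -1.05 against IgG, and their IgG signals were themselves below the input, 158 and 148 against 369.7 for Eif3m. The remaining fall was that of Eif2b1 (-1.37), the gene not called against IgG. The reverse held for Eef1d, whose IgG signals exceeded the input, and whose difference was -1.39 against the input and -2.22 against IgG. Eef2 (-1.52), Eif3e (-0.72), Eif2a (-0.91), Eif2s3y (-0.97) and Eif4ebp1 (-0.56) had fallen against IgG and did not pass against the input.

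Between IgG pulldown and input 0 of the 48 genes passed the threshold with limma, where 0.022% of all tested genes rose and 0% fell, and 5 of the 48 had an unadjusted p under 0.05. The differences ran from -1.12 for Eif3m to 0.91 for Eif4g2, with a median of -0.09. A p that misses the threshold with 2 arrays against 1 does not show that IgG and input were alike.

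The arrays carry 2 title suffixes whose meaning is not given, le1 on HuD array 1, IgG array 1 and the input and e1_le1 on HuD arrays 2 and 3 and IgG array 2. Of the 48 genes 13 were higher with HuD within both suffixes and 31 lower within both, where 33.5% of all tested genes were higher in both and 50.3% lower in both. The 38 called genes are among them, as the call nearly requires. For Eif5a2 the difference was 2.60 within le1 and 2.52 within e1_le1, and for Eif4e it was 2.32 and 1.81. Eef1e1 differed more, at 2.56 and 0.91. Among the falls Eif3i was at -1.95 and -2.10 and Eef1d at -2.52 and -2.05, whereas Eef2 was at -2.72 and -0.999, Eif3d at -2.70 and -0.90 and Eif4g3 at -1.81 and -0.29. Each suffix holds 1 IgG array, and the values within it are given without a test.

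**Figure D4:**
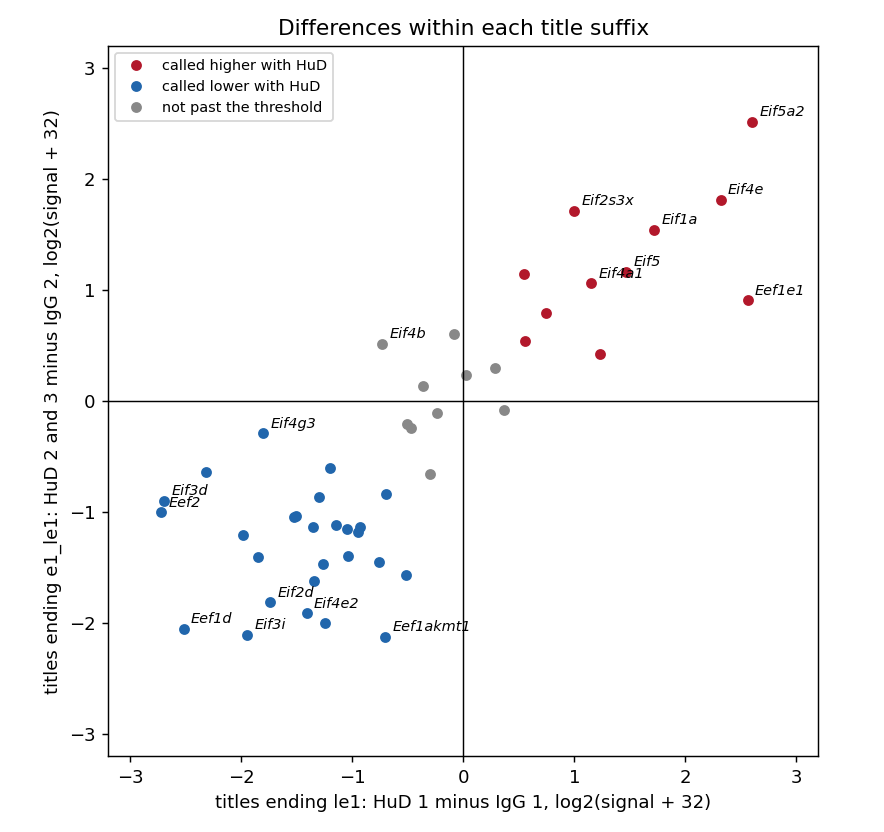
Difference between HuD and IgG pulldowns, in log2(signal + 32), within the arrays whose titles end in le1 (x axis, 1 HuD and 1 IgG array) and in e1_le1 (y axis, 2 HuD arrays and 1 IgG array), for the 48 tested genes. All red and blue genes lie in the upper right or lower left quadrant, Eif5a2 at 2.60 and 2.52, and Eef2, Eif3d and Eif4g3 lie well above the diagonal.

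Other genes of translation were examined as lists by the same fit, in which 21.5% of all tested genes rose and 34% fell. Of 16 tested cytosolic aminoacyl-tRNA synthetases, which charge tRNAs, 13 fell and 0 rose, with a median log2 difference of -1.20 against -0.28 for all tested genes, and leaving out each array in turn left 11 to 13 falls. The largest falls were those of Sars (-1.71 ± 0.28), Aars (-1.68 ± 0.32) and Farsb (-1.57 ± 0.25). Of 5 tested mitochondrial translation factors 4 fell and 0 rose (median -0.92), but with arrays centred on the 75th percentile or the median 2 fell and 1 rose. The falls were led by the elongation factor Tufm (-1.36 ± 0.27), Mtif3 (-1.08 ± 0.25) and Mrrf (-0.92 ± 0.25). Of 7 tested termination, recycling and noncanonical factors 2 fell and 0 rose (median -0.24), Denr (-1.37 ± 0.25) and Hbs1l (-1.10 ± 0.25). With arrays centred on the 75th percentile 2 fell and 2 rose and the median was 0.10, centred on the median 2 fell and 1 rose and it was 0.051, and without IgG array 2 the median was 0.080. Of the 7, 1 rose without HuD array 3 or without IgG array 1, and without the latter 3 fell. Both lost their calls with probe sets averaged, at -0.18 and 0.20, as did Mrrf with arrays centred on the 75th percentile (-0.58) or the median (-0.63).

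Of 13 tested genes of mTOR signalling and cap control 2 rose and 5 fell (median -0.39), where 21.5% of all tested genes rose and 34% fell. The falls numbered 2 without HuD array 1, 3 without HuD array 3 and 2 without IgG array 1. With HuD array 1, HuD array 2 or IgG array 1 left out there was 1 rise. Both centrings left 2 rises and 2 falls, with medians of 0.0077 for the 75th percentile and -0.06 for the median. Paip1, a poly(A)-binding protein partner that stimulates translation, was at 3359.9, 2476 and 3414 on the HuD arrays, 478 and 1030 on the IgG arrays and 849.6 for the input, with HuD arrays far above all others, a rise of 4.19-fold (log2 difference 2.07 ± 0.32, adjusted p = 0.000668). Mtor was at 205, 201 and 159 with HuD, against 731 and 568 with IgG and an input of 593, lower on all HuD arrays, a fall of 3.09-fold (log2 difference -1.63 ± 0.26, adjusted p = 0.000768), and Tsc1, a brake on mTOR, also fell (-1.64 ± 0.27). Of 6 tested genes of the eIF2 kinase pathway 1 rose and 2 fell (median 0.08). Ppp1r15b, which directs the phosphatase that restores eIF2 activity, rose (1.73 ± 0.27), while the stress transcription factors Atf4 (-1.10 ± 0.33) and Ddit3 (-1.10 ± 0.27) fell. The call of Atf4 was lost without HuD array 1 (-0.81) or IgG array 2 (-0.79), with arrays centred on the 75th percentile (-0.71) or the median (-0.77) and with probe sets averaged (-0.46). With probe sets averaged Paip1, Mtor, Tsc1, Ppp1r15b and Ddit3 still passed, at 0.83, -0.63, -0.82, 0.77 and -0.55, and so did Tufm (-0.71).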

How the data were processed

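Signals were read from the deposited table of 45101 probe sets on 6 arrays. They are intensity values as the authors deposited them, scaled so that the mean of each array, with 2% of probe sets trimmed at each end, is 150.001. The software that made them and any detection calls are not given in the sources used here, so a dim signal cannot be told from background. Probe sets were named by the platform annotation, with symbols brought to RefSeq (GRCm38.p6). Of them 34958 have 1 symbol, 932 have several, 9160 have none and 64 are controls, and 8 that pair a translation factor with another gene were left out.

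Each gene was represented by its brightest probe set over all arrays, and genes in the upper 50% of mean log2(signal + 32) were tested (9097 of 18193). Group means were fitted to all 6 arrays with limma 3.58.1 (lmFit, eBayes with a trend, 3 residual and 8.40 prior degrees of freedom) in R 4.3.3, with Benjamini-Hochberg adjustment over all tested genes. Probe sets were fitted likewise (9.09 prior degrees of freedom). The model fit alone was also run on simulated data. The choice of probe sets, the filter, the scalings and the start windows were not. Values per array are given for up to 4 called genes with the largest differences in each direction and class, and for paralogs and discordant probe sets beside them. Up to 3 called genes are named per related list, and from each remaining class the uncalled genes and other calls are given more briefly. Genes and lists were chosen with earlier results of these data known. Alternatives were other pseudocounts, filters, scalings, averaged probe sets, no trend, blocks by title suffix or number, and leaving out each pulldown array.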

Additional observations from a re-analysis of the deposited data

How the results depend on the processing

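Of 38 called translation factor genes, 18 kept their call in every one of 16 alternatives in which they were tested, 20 lost it in at least 1 and 0 reversed. The alternatives did not go through the other probe sets of a gene one by one. The 11 rises ranged from 7 to 9 and the 27 falls from 18 to 25 when each pulldown array was left out. The fewest of both were without HuD array 1. Over all 9097 tested genes the 1958 rises then ranged from 1488 to 1926 and the 3093 falls from 1982 to 2908. Testing only the upper 25% of genes, which held 31 of the 48, left 15 falls, where 1328 of all 4549 genes fell. The median difference of -1.01 was -0.83 with 64 added or no filter, -0.35 in the upper 25%, -0.64 and -0.70 with arrays centred on the 75th percentile and the median, -0.82 after quantile normalization and -0.44 with probe sets averaged, and ranged from -1.12 to -0.72 over left-out arrays. Against the input the 6 rises became 11 with the 75th percentile. The 23 falls became 13 with no filter or in the upper 25% and 10 with the 75th percentile, and ranged from 10 to 20 over left-out HuD arrays. The 41 probe sets that fell became 21 and 20 under the centrings and ranged from 21 to 33 over left-out arrays. For the input and the probe sets, the counts over all tested genes or probe sets at these settings are not given here.

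Changes of sign were seen in genes without a call. With the 75th percentile Eef1a1 was at 0.053, Eef1akmt2 at 0.22, Eef2k at 0.21, Eif4b at 0.27 and Eif4g2 at 0.13. Centred on the median Eef1akmt2 and Eef2k were at 0.16, Eif4b at 0.21 and Eif4g2 at 0.064. After quantile normalization Eef1akmt2 was at 0.18, Eef2k at 0.084 and Eif4e3 at -0.87. With probe sets averaged Eif3a was at -0.44, Eif4e3 at -0.38 and Eif4g2 at 0.13. Over left-out arrays Eef2k ranged from -0.47 to 0.19, Eif4b from -0.77 to 0.54, Eif4e3 from -0.11 to 0.62, Eif4ebp2 from -0.089 to 0.38 and Eif4enif1 from -0.10 to 0.30. The cause was not tested for any of these changes.

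The title numbers pair 2 HuD arrays with 2 IgG arrays. Deviations from the group means over 9097 genes correlated at -0.03 for HuD and IgG array 1, titled RNA1, and at 0.40 for HuD array 3 and IgG array 2, titled #2, and at 0.34 for HuD array 2, titled #1, and IgG array 1. The deviations of the 2 IgG arrays are equal and opposite, and those of the HuD arrays cancel. These correlations are therefore tied to one another and are not separate checks of a pairing. The labels do not say what the numbers mark, so whether they pair the arrays was not settled. With the number as a block there were 11 rises and 29 falls, Eef1a1 (-0.58) and Eif4g2 (-0.50) among them. HuD array 2 stood alone in its block. With 2 IgG arrays and 1 input array, the number of arrays limits the precision of every difference.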
